A study of Mus musculus with 4 samples.

Results

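Predicted mouse genes that still carry a provisional Gm symbol were followed in RNA from the cleared lysate of brain septal tissue. The members were all rows of the deposited tables whose symbol is exactly Gm followed by 4 or 5 digits, which gave 964 genes on 966 rows among the 15403 gene symbols listed. A further 17 Gm symbols with fewer digits or another ending were not included. The choice used names only, so that levels and differences played no part in it.

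Tissue came from wild-type (WT) mice and from TCRb-/- mice, in which the gene for the T cell receptor beta chain is disrupted. Strain, sex and age are not given here. Mice of both genotypes went through 30 min of restraint stress in a cone on 3 days, and tissue was taken 1.5 h after the last restraint, so that no unstressed group was compared. There were 2 libraries per genotype, each from the pooled septal tissue of 4 to 5 mice, and each genotype had 1 library in experiment 1 and 1 in experiment 2. A replicate is therefore a pool of mice, and its number is its experiment.

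Gm symbols are given by the mouse nomenclature group to loci predicted from sequence or from gene models before a function is known. They cover several kinds of locus: long non-coding RNAs (lincRNAs between genes, antisense RNAs across from another gene, bidirectional promoter RNAs that start back to back with one), pseudogenes, and open reading frames without a studied product. A processed pseudogene is a copy of a spliced mRNA that was reverse transcribed and inserted elsewhere, and an unprocessed one is a decayed gene duplicate. Because many long non-coding RNAs stay in the nucleus while mRNAs are exported, a lysate freed of nuclei holds such transcripts at a share that depends on how well nuclei were removed.

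The 4 libraries held between 19988137 and 26210790 reads, so that 1 read was worth between 0.0382 and 0.050 CPM (the usual depth-scaled read count), and 3 reads, taken as the limit that a count of 0 allows, between 0.114 and 0.150 CPM. These limits and the intervals given below cover counting error only, since amplified reads are not independent molecules. Trbc2, the T cell receptor beta constant gene, had 0 and 0 reads in the TCRb-/- libraries and 169 and 86 in the WT libraries, as the labels say. Tissue of neighbouring regions differed between the experiments: summed choroid plexus markers were at 2138 and 1308 CPM in experiment 1 and 6862 and 4171 CPM in experiment 2 (TCRb-/- and WT in that order), with 9 of 10 called higher. Summed striatal markers were at 4247 and 3809 CPM in experiment 1 and 922 and 2307 CPM in experiment 2, with 8 of 8 called lower. The sums also differed by genotype: the choroid plexus sum in TCRb-/- was 1.63 and 1.64 times that in WT (experiments 1 and 2), and the striatal sum 1.12 and 0.400 times. The median genotype difference was 0.56 over the choroid plexus markers, with 0 of 10 called (1 with the block), and -0.59 over the striatal markers, with 0 of 8 called. Septal markers summed to between 881 and 1013 CPM in all 4 libraries, yet 3 of 7 tested were called higher in experiment 2 and 0 lower. Summed cortical and hippocampal markers were at 669 and 700 CPM in experiment 1 and 310 and 401 CPM in experiment 2. Of these, 6 of 7 were called lower and 0 higher, while 4 of 7 thalamic markers were called higher and 0 lower. Fewer cells of a type and less RNA per cell cannot be told apart in bulk tissue, and the part of dissection in the member differences below was not tested.

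Together the 964 predicted genes took between 0.298% and 0.316% of the reads of a library. Their median level was 1.01 CPM, against 21.3 CPM over all gene symbols and 2.72 CPM over the 245 symbols that end in Rik, another set of provisional names. At a mean of at least 1 CPM there were 486 members, 35 of them at 10 CPM or more, and 478 lay below 1 CPM. The lowest listed member had a mean of 0.293 CPM. Every gene of the deposited tables reached 10 reads in some library and 0.447 CPM in no fewer than 2, so the members are the better covered part of all predicted genes. Of 26669 Gm entries of this form in the GENCODE M21 annotation, 902 (3.38%) were listed, with a wide range over types. The share was 23.2% of bidirectional promoter, 20.7% of processed transcript, 10.6% of antisense, 7.34% of protein-coding, 4.35% of lincRNA, 1.61% of processed pseudogene and 0.799% of unprocessed pseudogene entries, and 0.0979% of miRNA entries.

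By annotated type, the members were 210 antisense RNAs, 182 pseudogenes (139 of them processed without further evidence of transcription), 180 lincRNAs, 107 protein-coding genes, 93 TEC entries (a class for loci with transcript evidence that awaits laboratory tests), 84 processed transcripts, 23 bidirectional promoter RNAs, 11 sense intronic RNAs and a few of rarer types. The other 67 were not in GENCODE M21. For 30 of these an entry of the mouse RefSeq annotation of GRCm38 was found by symbol or synonym, and 26 of the 30 now have another symbol, 7 of them a zinc finger (Zfp) symbol. Among these, Gm15800 is Hectd4, which encodes a large ubiquitin ligase, Gm11744 is Prcd, a photoreceptor disc protein, Gm12942 is Tmem35b, Gm11974 is Snhg15, a snoRNA host gene, and Gm5607 is Sox1ot, a transcript that overlaps Sox1. The remaining 37 matched neither source and are given by symbol only.

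Protein-coding members were 11.1% of the genes and took 26.4% of the members' summed CPM, and pseudogenes were 18.9% of the genes and took 7.93% of it. Among the 6 largest types, median levels ran from 0.673 CPM for pseudogenes and 0.933 CPM for TEC entries to 1.25 CPM for protein-coding members, with antisense RNAs at 1.17 CPM and lincRNAs at 1.18 CPM. CPM counts reads and favours long transcripts. Per kilobase of exon the order was different: of the 6 largest types, pseudogenes had the highest median, at 0.901 CPM per kilobase, and TEC entries the lowest, at 0.382. Median exon length was 933 bases for pseudogenes and 2388 bases for TEC entries. The spread within a type was wider than the gaps between types, as the plot of levels by type shows.

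**Figure D1:**
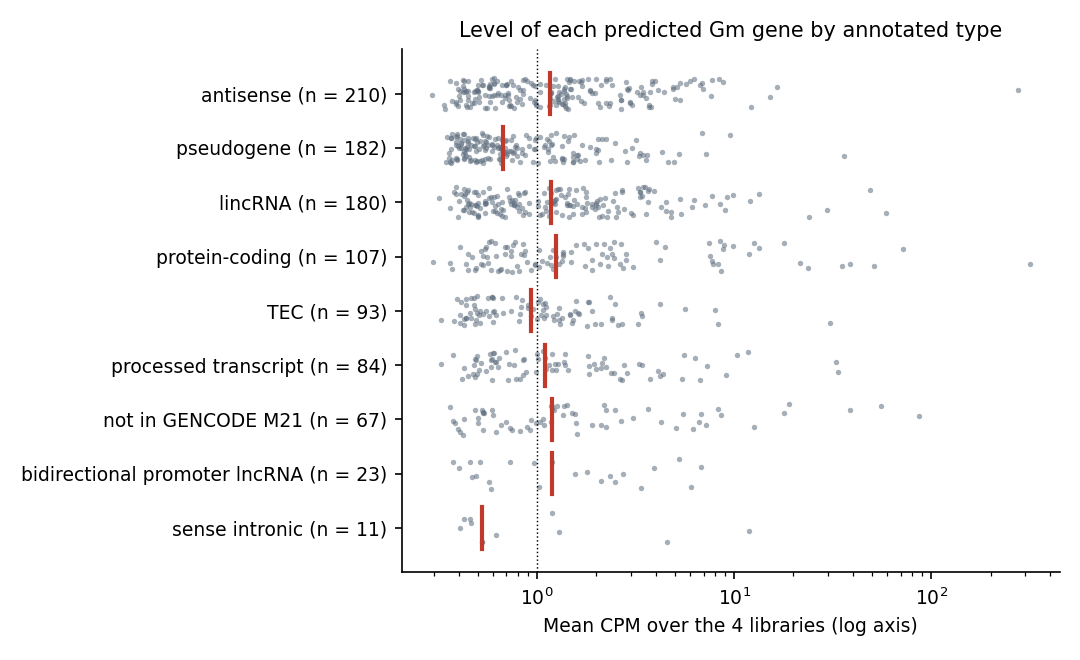
Each grey point is the mean CPM of 1 predicted gene over the 4 libraries (log axis), in rows by annotated type with the number of members, a red bar marks the median of the type, and the dotted line is 1 CPM. Medians lie between 0.526 and 1.25 CPM, while a few genes of several types reach past 30 CPM.

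A few members held much of the signal. The top 2 took between 18.0% and 20.3% of the member reads of a library, and the top 10 took between 33.1% and 36.2%. Gm16286, a protein-coding entry on chromosome 18 that shares 457 exon bases with Txnl4a (a spliceosome component) on the same strand, led with 290 and 346 CPM in TCRb-/- and 285 and 345 CPM in WT libraries. The pair from experiment 2 was the higher one in both genotypes. Txnl4a was at 78.0, 96.5, 85.3 and 97.6 CPM in the same library order (TCRb-/- replicates 1 and 2, then WT replicates 1 and 2, as in all lists of 4 values below), and reads from the shared bases cannot be assigned to one of the 2 genes here.

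Gm15564, an antisense RNA on chromosome 16 from 35966752 to 35983230 (GRCm38, minus strand) that lies across from Parp9, was at 246, 276, 291 and 287 CPM. Parp9 itself, an ADP-ribosyltransferase family gene, was at 1.99, 2.35, 1.37 and 1.61 CPM, so this annotated antisense partner had far more reads than the coding gene across from it. Per kilobase of exon Gm15564 was at 335 CPM, against 103 for Gm16286. The kit named in the labels does not mark strand, so the strand of these reads is known from the annotation alone.

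Gm23935 had the highest value per length among the named members, at 1019 CPM per kilobase of exon. It is annotated as a miRNA-type locus of only 57 bases on chromosome 16 from 11144125 to 11144181, within an intron of Zc3h7a on the opposite strand. Its levels were 50.6, 61.0, 59.4 and 61.3 CPM, while Zc3h7a, a zinc finger gene, was at 22.9, 17.0, 20.6 and 12.8 CPM. The reads show only that RNA from this stretch was counted, not which transcript it came from.

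Gm3934, which matched neither annotation, followed with 86.8, 90.3, 82.4 and 88.2 CPM. Gm13889, a protein-coding entry on chromosome 2 from 93955810 to 93957201, was at 71.7, 72.3, 68.0 and 75.8 CPM, and the lincRNA Gm10419 on chromosome 5 from 108367769 to 108378239 at 61.0, 51.8, 63.0 and 60.2 CPM. These 3 members varied little between libraries. Gm1673 is now known as Nicol1 and encodes a small secreted protein; it lies on chromosome 5 from 33983433 to 33985013 and was at 41.0, 63.7, 38.3 and 61.5 CPM. The lincRNA Gm9866 (chromosome 12, 27050950 to 27160633) averaged 48.7 CPM and the protein-coding entry Gm14597 (chromosome X, 53577087 to 53608979) 38.8 CPM. The transcript of Gm14597 is 97.8% identical to that of 4933416I08Rik over 603 bases, and reads from that stretch cannot be assigned to one of the 2 genes here.

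Most members sat beside or across from another gene. Of the 964, 297 overlapped an exon of another gene on the opposite strand, 50 on the same strand, and 126 lay within an intron. Without a shared exon, 122 were within 1 kb of a listed gene that is no member, and 297 had no such gene within 1 kb. Unlisted genes and other members were not looked for at that distance. For 72 no position was used. With reads that carry no strand, the 297 opposite-strand members cannot be told apart from their partners in the shared bases. The processed transcript Gm14204, for example, starts 44 bases from Slc32a1, which encodes the vesicular GABA transporter. It was at 32.4, 31.0, 31.9 and 36.2 CPM, and Slc32a1 at 44.7, 35.1, 36.2 and 39.7 CPM. Within these 4 libraries the 2 genes differed in which library was highest.

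Many members are near copies of an expressed gene, which makes their read counts uncertain. Of 892 members with a GENCODE transcript, 267 had a stretch of at least 100 bases at 95% identity or more to the transcript of another gene, and in 160 such stretches covered 50% or more of the member. Of those 160, 114 were pseudogenes and 38 protein-coding entries. The most copied gene was Gapdh, which encodes a glycolytic enzyme: 22 members, 92.9% to 99.2% identical, summed to between 14.8 and 17.2 CPM, or 7.51% to 8.23% of the Gapdh reads. The 3 members called copies of Tuba1b, an alpha tubulin, summed to 1.50% to 1.75% of its reads. The 4 members that match part of Cdh11, a cadherin, summed to between 35.4% and 51.0% of its reads. Cdh11 was not always the closest match: Gm21092 was 99.1% identical to 2610005L07Rik over 952 bases and 93.3% to Cdh11 over 974. Gm6483 was closest to Gm21811, another of the 4. Gm28437 on chromosome 1 from 24613189 to 24613971 is identical to the mitochondrial gene mt-Co3 over all 783 of its bases and was at 3.38, 3.75, 2.94 and 4.16 CPM.

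Ubb, which encodes a polyubiquitin, has 4 copies among the members. Gm1821 and Gm8797 had the most reads of the 4, and 120 bases of each are set against Ubb to show how few bases separate copy from parent. Each is the ungapped coding stretch of that length with the most differences. Identity to Ubb was 97.7% over 617 bases for Gm1821 and 98.2% over 384 bases for Gm8797. The stretches are from GENCODE M21 transcripts (GRCm38), 5′ to 3′, in lower case with the differing bases in capitals. Gm1821 lies at chr14:46084028-46085000 (plus strand, a transcribed processed pseudogene) and is shown from base 295 to 414 of its transcript, which has 6 differences from bases 1079 to 1198 in the coding part of the Ubb transcript:
Gm1821: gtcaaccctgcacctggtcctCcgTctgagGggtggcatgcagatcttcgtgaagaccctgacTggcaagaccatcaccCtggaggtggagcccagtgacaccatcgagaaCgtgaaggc
Ubb: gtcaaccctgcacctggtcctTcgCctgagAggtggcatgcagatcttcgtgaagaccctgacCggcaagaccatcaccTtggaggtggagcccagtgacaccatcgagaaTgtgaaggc
Gm8797 lies at chr3:5750806-5751295, is annotated as protein-coding, and is shown from base 129 to 248, with 5 differences from Ubb bases 1146 to 1265:
Gm8797: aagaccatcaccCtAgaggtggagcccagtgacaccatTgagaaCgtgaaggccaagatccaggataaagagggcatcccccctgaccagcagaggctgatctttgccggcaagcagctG
Ubb: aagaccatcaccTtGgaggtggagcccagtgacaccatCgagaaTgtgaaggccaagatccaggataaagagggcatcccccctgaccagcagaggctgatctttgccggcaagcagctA

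A read that falls between the capitals fits copy and parent equally, and the rule by which such reads were assigned is not given here. The 4 Ubb copies summed to 44.2, 77.1, 56.2 and 71.4 CPM, which was 2.83%, 3.67%, 3.47% and 3.37% of the Ubb reads. Gm1821 was at 23.3, 41.7, 36.2 and 43.3 CPM, lowest in TCRb-/- replicate 1, and Gm8797 at 10.8, 18.3, 10.0 and 14.5 CPM, lower in both libraries of experiment 1. Ubb itself was at 1560, 2099, 1617 and 2123 CPM, also lower in experiment 1. Other highly covered processed pseudogenes had close parents too: Gm12696 (5.24 CPM) is 97.9% identical to Hnrnpc over 905 bases, and Gm8394 (4.94 CPM) is 98.6% identical to Psma5, a proteasome subunit, over 952 bases.

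No predicted gene passed the test for genotype. With limma on log2(CPM + 1) and Benjamini-Hochberg adjustment over the 13906 genes at a mean of at least 1 CPM, 0 of 486 members had an adjusted p under 0.05, against 0 genes (0.0%) of all tested. With the experiment as a block, which pairs the 2 libraries of an experiment, 0 members passed, against 2 genes of all tested (0.0144%). Trbc2, with 0 reads in both TCRb-/- libraries, did not pass without the block and passed with it (limma, adjusted p = 0.0329). A gene that does not pass the fit without the block is therefore not shown to be unchanged. At an unadjusted p under 0.05, 3 members (0.617%) were below it without the block, against 0.309% of all genes, and 17 (3.50%) with the block, 5 higher and 12 lower in TCRb-/-, against 5.64%. The median difference of the members was -0.04, and that of all genes 0.00071, on the log2(CPM + 1) scale, which understates the change of low genes. The median standard error of a member's difference was 0.23, against 0.19 over all genes.

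In 48 members (9.88%) both TCRb-/- libraries were above both WT libraries, against 9.77% of all genes, and in 68 (14.0%) both were below, against 8.04%. The difference had the same sign in both experiments for 243 of 486 members, or 50%, against 51.5% of all genes. An exact permutation test of 2 libraries against 2 cannot give a p below 0.333, so no such test was made per gene. By type, 10 were higher and 16 lower of 112 tested antisense RNAs, 5 and 13 of 101 lincRNAs, 5 and 7 of 62 protein-coding members, and 4 and 9 of 46 processed transcripts. Of 61 pseudogenes 8 were higher and 4 lower, of 45 TEC entries 9 and 7, of 40 members not in GENCODE M21 7 and 8, and of 13 bidirectional promoter RNAs 0 and 4. Choroid plexus and striatal marker sums differed between the genotypes as well, as given above, and their part in these counts was not tested.

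**Figure D2:**
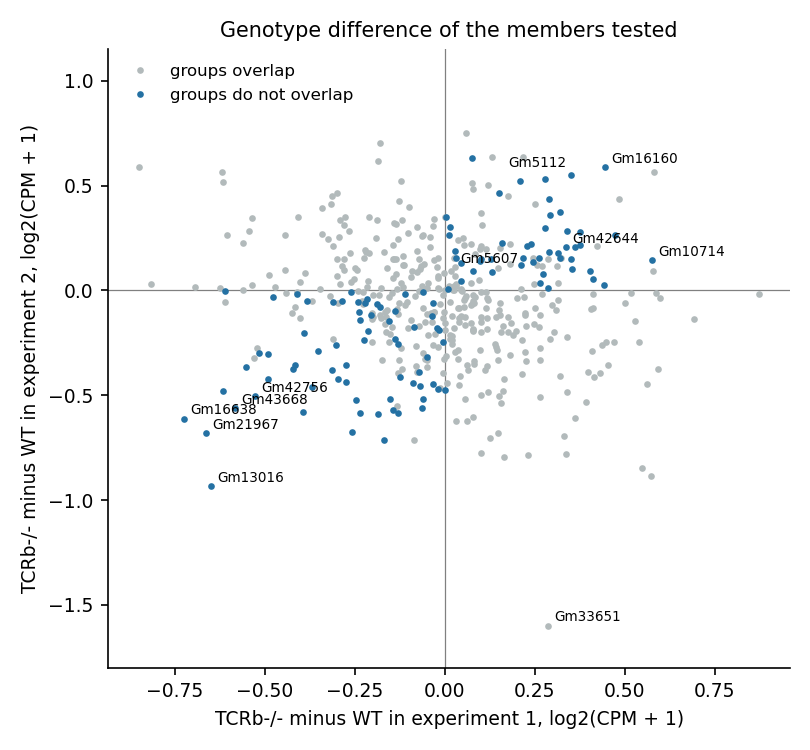
Each point is 1 of the 486 members tested, with its TCRb-/- minus WT difference in experiment 1 on the horizontal axis and in experiment 2 on the vertical axis, both on the log2(CPM + 1) scale, and blue where both TCRb-/- libraries lie on one side of both WT libraries. The cloud centres near 0, with 50% of the members at the same sign in both experiments, and Gm33651 lies apart at the bottom.

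The members on the lower side with the smallest p in the blocked fit were Gm21967, Gm13016, Gm42756, Gm16638 and Gm43668, none past the threshold. Gm13016 is a lincRNA on chromosome 4 from 140380630 to 140385574, with no listed gene outside the members within 1 kb. It was at 1.10 and 0.951 CPM in TCRb-/- and 2.29 and 2.73 CPM in WT libraries, on 27, 19, 60 and 61 reads. Both TCRb-/- values lay below both WT values, by 0.79 (SE 0.21) on the log2(CPM + 1) scale (limma, adjusted p = 1.00 without and 0.848 with the block). Gm21967, unmatched in the annotations, was at 4.11 and 3.25 against 7.10 and 5.81 CPM, and its adjusted p in the blocked limma fit was 0.782. Gm42756, antisense to Fbxw15 over 168 exon bases (chromosome 9, 109537100 to 109552780), was at 5.12 and 7.05 against 7.82 and 10.4 CPM. Gm16638, antisense to the channel-like gene Tmc3 over 3961 bases (chromosome 7, 83597048 to 83631880), was at 0.854 and 0.650 against 2.06 and 1.52 CPM. Gm43668, a TEC entry within an intron of Dnajc19 (chromosome 3, 34070659 to 34076000), was at 1.22 and 1.80 against 2.33 and 3.13 CPM. Dnajc19, which encodes a mitochondrial co-chaperone, was at 61.5 and 69.5 against 60.9 and 70.2 CPM, with no shift of its own by genotype beyond the spread of its libraries.

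On the higher side the corresponding members were Gm42644, Gm16160, Gm5112, Gm5607 and Gm10714. Gm42644, a lncRNA that RefSeq lists as Gm19439 (chromosome 3, 88030858 to 88033152), was at 42.0 and 42.5 CPM in TCRb-/- and 33.1 and 36.7 CPM in WT libraries, a difference of 0.27 (SE 0.14; limma, adjusted p = 1.00 without and 0.848 with the block). It is the best covered of the 10, with between 820 and 1033 reads per library. Gm5607 (Sox1ot, chromosome 8, 12385771 to 12436732) was at 19.6 and 19.1 against 16.4 and 16.3 CPM, with little spread within a genotype. Gm16160, which overlaps the planar polarity gene Vangl1 by 8 exon bases on the opposite strand (chromosome 3, 102203956 to 102206266), was at 1.50 and 1.85 against 0.839 and 0.894 CPM. Gm5112 (TEC, chromosome 6, 122811170 to 122813537) was at 2.56 and 2.1 against 1.79 and 1.12 CPM, and Gm10714 (antisense, chromosome 2, 174125038 to 174183918) at 4.47 and 4.95 against 2.67 and 4.38 CPM. The 10 genes were picked for not overlapping, so their separation is a description.

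**Figure D3:**
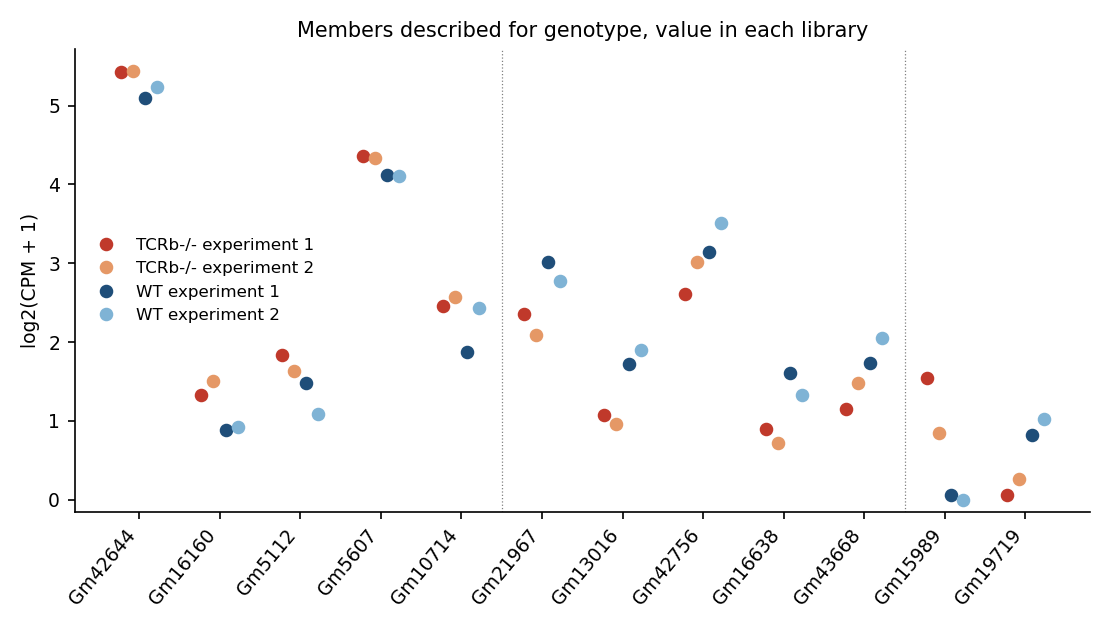
Values of 12 members in each library as log2(CPM + 1), red and orange for TCRb-/- and dark and light blue for WT in experiments 1 and 2, in 3 blocks: higher in both TCRb-/- libraries, lower in both, and Gm15989 and Gm19719, which lie under the filter of 1 CPM. Gm15989 falls to 0 in WT replicate 2, and the 2 libraries of a genotype lie close together for Gm5607.

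The widest gap between the genotypes lay below that filter. Gm15989 is a processed pseudogene of 498 bases within an intron of Ttc28, on the same strand, at chr5:110905244-110905741 (GRCm38, plus strand), and is 92.0% identical over 501 aligned bases to Mkrn1, which encodes the ubiquitin ligase makorin. The stretch below is again the ungapped coding one of 120 bases with the most differences. Bases 233 to 352 of its GENCODE M21 transcript are shown with bases 1369 to 1488 of the Mkrn1 transcript, from its coding part, with the 9 differing bases in capitals, because they show what separates reads of the copy from reads of the parent:
Gm15989: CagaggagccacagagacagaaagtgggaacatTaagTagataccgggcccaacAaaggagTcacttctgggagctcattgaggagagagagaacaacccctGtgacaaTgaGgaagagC
Mkrn1: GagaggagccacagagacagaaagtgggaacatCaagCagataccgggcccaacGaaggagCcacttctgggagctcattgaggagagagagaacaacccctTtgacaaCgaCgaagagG

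Gm15989 had 47 and 16 reads in the TCRb-/- libraries and 1 and 0 in the WT libraries. In CPM, with exact 95% intervals, that was 1.91 (1.40 to 2.54) and 0.800 (0.458 to 1.3) against 0.0382 (0.000966 to 0.213) and 0 (3 reads would be 0.134). Over both libraries of a genotype, the ratio was 68.6, with an exact 95% interval from counting error of 11.9 to 2754. The 2 TCRb-/- intervals do not overlap, so these libraries differed by more than counting error, and the interval of the ratio leaves that spread out. The ratio rests on 1 WT read, and libraries were left out in turn after seeing the data. Without TCRb-/- replicate 1 it was 38.9 (6.04 to 1630), without TCRb-/- replicate 2 92.8 (15.9 to 3744) and without WT replicate 2 37.0 (6.41 to 1486). Without WT replicate 1 no WT read is left, and TCRb-/- was at least 10.5-fold higher, set against 3 reads in the other WT library. The gene was listed only because both TCRb-/- libraries passed the floor of the tables. In the limma fit without a filter the difference was 1.17 (SE 0.27), with an adjusted p of 1.00, and 0.459 with the replicate block (unadjusted p = 0.00614 and 0.000626). The gene was named by a rule on zeros and listed through its high group. The ratio, its interval and these p-values therefore describe it and are no test of genotype. The difference did not pass the threshold in any of these fits.

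The parent and the host gene of Gm15989 did not show such a gap. Mkrn1 was at 295 and 235 CPM in TCRb-/- and 269 and 240 CPM in WT libraries. Its difference was 0.05, with an SE of 0.16 without and 0.072 with the block (limma with the block, adjusted p = 0.953). The reads of Gm15989 were 0.647%, 0.341%, 0.0142% and 0% of the Mkrn1 reads. Ttc28, the host gene, was at 10.3 and 9.26 against 8.97 and 8.45 CPM, with a difference of 0.15 (SE 0.17 without and 0.13 with the block). Mkrn1 lies on chromosome 6 from 39397804 to 39420462, which is 2.13 Mb from Trbc2 (41546730 to 41548352), while Gm15989 is on chromosome 5. Whether Mkrn1 transcripts gave some of the Gm15989 reads was not tested. Gm10244, an antisense RNA at Mkrn1 under the filter of 1 CPM, was picked with its values in view. It was at 0.895 and 0.800 against 0.572 and 0.537 CPM.

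Gm19719 showed the reverse order and was picked after its values were seen. It is antisense to Alox5ap, a leukotriene synthesis gene of myeloid cells, over 189 exon bases (chromosome 5, 149282752 to 149287868), and had 1 and 4 reads in TCRb-/- and 20 and 23 in WT libraries, or 0.0407 and 0.200 against 0.763 and 1.03 CPM. The difference was -0.76 (SE 0.19; limma without a filter, adjusted p = 1.00, and 0.842 with the block), and it entered the tables through the WT libraries. Alox5ap was at 1.87 and 2.05 against 1.53 and 2.46 CPM, with overlapping groups. The other members with 0 reads in a library were Gm42608, Gm12454 and Gm37176, each at 0 in TCRb-/- replicate 2, which allows up to 0.150 CPM, and with 12 to 26, 17 to 18 and 12 reads in the libraries of experiment 1. WT replicate 2 had 6, 7 and 8 reads of them. Gm42608 was lower in TCRb-/- in both experiments, on 12 against 26 and 0 against 6 reads, with a difference of -0.38 (unadjusted p = 0.0702 and adjusted p = 0.860 in limma with the block and no filter). It lies within an intron of Dclk1 on the same strand. Dclk1 was at 249 and 132 against 294 and 178 CPM, also lower in TCRb-/- in both experiments (limma with the block, adjusted p = 0.717). Whether Dclk1 transcripts gave the reads of Gm42608 was not tested. Gm12454 and Gm37176 were lower in TCRb-/- in experiment 2 and not in experiment 1.

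One library decided the only genotype call of a member in any setting tried. Without TCRb-/- replicate 1, the lincRNA Gm33651 (chromosome 3, 143576614 to 143589170) was called lower in TCRb-/- by 1.64 (SE 0.31; limma, adjusted p = 0.0237). Its values were 5.25 and 0.600 CPM in TCRb-/- and 4.12 and 3.85 CPM in WT libraries, so that only TCRb-/- replicate 2 was low. With all 4 libraries its adjusted p was 1.00. In that setting the genotype has 1 library on its TCRb-/- side, which is taken to vary like the WT pair.

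Between the experiments, 34 of 486 members were called (limma, adjusted p under 0.05), which is 7.0% against 23.7% of all genes tested. In experiment 2, 16 were higher (3.29%, against 8.95%) and 18 lower (3.70%, against 14.7%). The labels give the experiment as a batch, and the dissection markers above moved with it, so these calls describe a difference between experiments and not a treatment; the part of the markers in them was not tested. Members were low in level, and the share called rose with level in members and in other genes. From 1 to 2 CPM, 2.52% of members were called against 7.59% of other genes, from 2 to 5 CPM 7.10% against 10.7%, from 5 to 10 CPM 15.5% against 14.7%, and from 10 CPM on 22.9% against 29.0%. These shares carry no test of the difference.

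**Figure D4:**
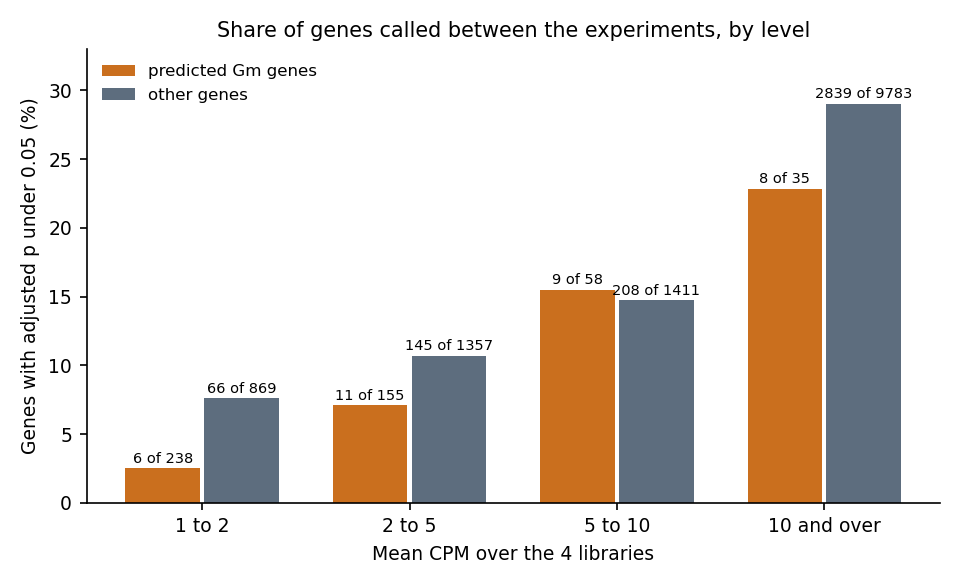
Bars give the percent of genes with an adjusted p under 0.05 between the experiments, by mean CPM over the 4 libraries, orange for predicted Gm genes and grey for all other genes, with the number called of the number tested above each bar. Both sets rise from left to right, from 2.52% to 22.9% in the members.

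By type, the protein-coding members had 7 called higher and 2 lower of 62, the lincRNAs 2 higher and 6 lower of 101, antisense RNAs 1 and 3 of 112, and processed transcripts 0 and 3 of 46. Over all genes tested, 8.95% were called higher and 14.7% lower. The share called rose with level, and 11 of the 35 members at 10 CPM or more were protein-coding. The types were not compared by a test or at matched level. Of 61 tested pseudogenes, limma called 0 without the block, where 7 had an unadjusted p under 0.05, 0 with voom weights and 2 with the block. The median difference, experiment 2 minus experiment 1, was 0.10 for protein-coding members and 0.14 for pseudogenes, and it was -0.06 for lincRNAs and -0.13 for TEC entries. Over all members it was 0.01, and -0.03 over all genes tested. Across genes, the difference fell with exon length in the members (Spearman's rho -0.215 over 443 members with a length) and in all genes (-0.398 over 13552), where the points share the same 4 libraries.

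Gm11549 had the largest difference of the 486 members tested. This protein-coding entry on chromosome 3 (36515057 to 36521813, minus strand, 30793 bases from Exosc9) was at 11 and 15.3 CPM in experiment 1 and at 2.6 and 2.37 CPM in experiment 2 (TCRb-/- first). It fell by 2.01 on the log2(CPM + 1) scale (SE 0.18; limma, adjusted p = 0.00263), and the groups were far apart in both genotypes. Exosc9, an RNA exosome subunit, was at 44.6 and 51.9 CPM in experiment 1 and 53.2 and 57.8 CPM in experiment 2. Gm11549 kept its call without any 1 of the libraries, at between -2.23 and -1.79.

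The other members with the lowest values were Gm42730, Gm30238, Gm43299 and Gm21781. Gm30238 (TEC, chromosome 12, 112690986 to 112693588) fell from 8.26 and 6.98 to 3.05 and 4.34 CPM, and the lincRNA Gm21781 (chromosome 10, 4391587 to 4396424) from 6.14 and 5.38 to 2.55 and 3.00 CPM, with adjusted p of 0.0157 and 0.0132 in limma. Both lost the call without TCRb-/- replicate 1 (adjusted p = 0.0880 and 0.0769). Gm42730 fell from 1.75 and 3.05 to 0.901 and 0.626 CPM, and lost the call without WT replicate 1 (limma, adjusted p = 0.167). Gm43299 fell from 1.55 and 1.79 to 0.200 and 0.760 CPM, and lost it without TCRb-/- replicate 2 (limma, adjusted p = 0.123).

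Higher in experiment 2 were Gm8773, Gm42637, Gm11744, Gm2694 and Gm12942 at the top of the list. Gm2694 is a lincRNA on chromosome 8 (87460469 to 87525554) that spans Cbln1 on the opposite strand, the gene of the secreted synapse organiser cerebellin 1. It rose from 6.22 and 6.22 to 13.9 and 10.6 CPM, by 0.87 (SE 0.16; limma, adjusted p = 0.0105), and kept the call without any 1 library. Cbln1 rose from 4.35 and 5.19 to 16.3 and 10.5 CPM, by 1.29 (SE 0.21; limma, adjusted p = 0.0080), in the same direction. Summed thalamic markers went from 185 and 219 to 545 and 327 CPM in the same libraries, and their part in the result was not tested.

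Gm8773, a protein-coding entry (chromosome 5, 5573799 to 5576203), was at 0.488 and 1.68 CPM in experiment 1 and 4.80 and 2.86 CPM in experiment 2. Its difference was 1.25 (SE 0.31; limma, adjusted p = 0.0274), and the call was lost without TCRb-/- replicate 1 (adjusted p = 0.12). Gm42637 rose from 0.935 and 0.992 to 3.10 and 2.55 CPM, and was not called without TCRb-/- replicate 1 (limma, adjusted p = 0.0597) or without WT replicate 1 (0.0523). Gm11744 (Prcd, chromosome 11, 116653889 to 116668389) rose from 5.86 and 3.59 to 11.7 and 7.56 CPM, and was not called without TCRb-/- replicate 2 (limma, adjusted p = 0.0928) or WT replicate 1 (0.169). In each experiment Gm11744 was higher in the TCRb-/- library, and its blocked genotype difference had an unadjusted p of 0.00460 and an adjusted p of 0.848 in limma. Gm12942 (Tmem35b, chromosome 4, 127126043 to 127129660) rose from 1.99 and 2.71 to 4.5 and 5.46 CPM, and was not called without TCRb-/- replicate 1 (limma, adjusted p = 0.0971).

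**Figure D5:**
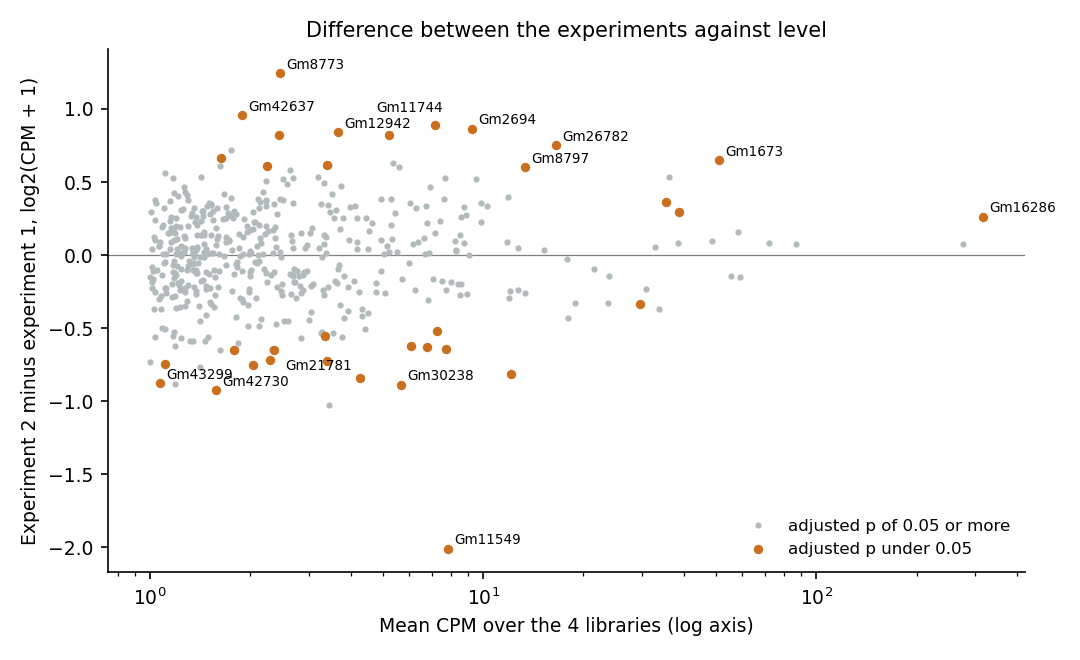
Each point is 1 of the 486 members tested, with its mean CPM over the 4 libraries on a log axis and its experiment 2 minus experiment 1 difference on the log2(CPM + 1) scale, orange where the adjusted p is under 0.05. Gm11549 at -2.01 lies alone at the bottom, and the called members of 10 CPM or more include Gm1673 and Gm16286.

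Among well covered members, Gm1673 (Nicol1) rose from 41.0 and 38.3 to 63.7 and 61.5 CPM, by 0.65 (SE 0.08; limma, adjusted p = 0.00500), and kept the call without any 1 library. Gm16286 rose by 0.26 (SE 0.06; limma, adjusted p = 0.0195), but lost the call without TCRb-/- replicate 2 (0.0792), WT replicate 1 (0.0525) or WT replicate 2 (0.0531). Its overlapping neighbour Txnl4a rose by 0.25 (limma, adjusted p = 0.0440). Gm14597 rose by 0.29 (SE 0.09; limma, adjusted p = 0.0489), and lost the call without TCRb-/- replicate 1 (0.121), TCRb-/- replicate 2 (0.254) or WT replicate 1 (0.143). Gm8797 rose from 10.4 to 16.4 CPM on average, by 0.60 (limma, adjusted p = 0.0229), and its parent Ubb rose by 0.41 (limma, adjusted p = 0.00976). The other Ubb copies Gm1821, Gm12328 and Gm44389 had values of 0.53, 0.52 and 0.53, and did not pass (limma, adjusted p = 0.0628, 0.0667 and 0.0823). With the replicate block Gm1821 and Gm12328 passed (limma, adjusted p = 0.0249 and 0.0328), and Gm44389 did not (0.0713).

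Among antisense RNAs, Gm26782 (chromosome 14, 50870324 to 50880603), which overlaps the telomerase-associated gene Tep1 by 144 exon bases, rose from 10.1 and 14.1 to 20.8 and 21 CPM, by 0.75 (SE 0.16; limma, adjusted p = 0.0152). Tep1 was at 1.3 and 1.07 CPM in experiment 1 and 1.95 and 1.12 CPM in experiment 2, far under the antisense partner. Gm20501, a bidirectional promoter RNA 212 bases from the kinase gene Brsk2, rose by 0.82 (limma, adjusted p = 0.0447), while Brsk2 fell by 0.27 (adjusted p = 0.0276). Over all 34 called members, 13 had a tested partner gene. In 11 of the 13 the partner's difference had the same sign, a share of 84.6%, against 56.4% of all 225 tested members with a tested partner. Mtus2, the partner of Gm15721, and Txnl4a, that of Gm16286, were called in the same direction as the member, and Brsk2 in the opposite one. Cbln1 is not in this count, because another gene is taken as the partner of Gm2694.

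The number of calls depended on single libraries. Without 1 library the count of members called between the experiments moved both ways. Such a fit leaves 1 library in an experiment, so its count is a description only. Without a trend of variance on level limma called 14 members in place of 34, and 630 of all genes in place of 3292. With the replicate block it called 36 members, of which 29 were among the 34, and 3432 of all genes.

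Named lncRNAs gave a reading of what the lysate held. Of 11 transcripts known to be retained in nuclei, 10 were listed and 8 tested: Malat1 was at 1554, 871, 1091 and 973 CPM, and Meg3 at 290, 187, 255 and 193 CPM, so transcripts known as nuclear were read in the cleared lysate. Malat1, Neat1, Meg3, Miat, Snhg11 and Peg13 were called lower in experiment 2, 6 of 8, with a median difference of -0.51 over the list, against -0.03 over all genes. The sum over the list went from 2484 and 1988 CPM in experiment 1 to 1552 and 1678 CPM in experiment 2. Of 11 snoRNA host genes and other lncRNAs found in the cytoplasm, 7 were listed and tested, 1 of them (Gas5) was called higher and none lower, with a median of 0.13. The lincRNAs among the members had a median difference of -0.06 between the experiments, against 0.01 over all members and -0.03 over all genes. Whether carry-over from nuclei had a part in it was not tested.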

How the data were processed

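RNA of the cleared lysate of septal tissue was sequenced in 4 libraries with the SMARTer ultra-low-input kit, per the labels' protocols. The deposited values are on a log2 scale: per the values, log2 of CPM with 0.5 added to the count and 1 to the library total. The submitters' processing notes name HISAT2 2.1.0, SAMtools 1.3, HTSeq 0.9.1, R 4.0.5, limma 3.46.0 and the mm10 build, with no role or order. The counting options, annotation and row filter are not given here.

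Solving for the total gave whole reads for 100% of the values (tolerance 0.001 reads). Of 15426 rows, 17 spike-in rows and 6 exact duplicate rows were left out, the latter including Gm16701 and Gm4430, which each stood on 2 identical rows. Reads were divided by the library total, and log2(CPM + 1) was tested with limma 3.58.1 in R 4.3.3 (trend, two-sided) on the 13906 genes at a mean of at least 1 CPM, with genotype or experiment as the only term. Adjusted p-values are Benjamini-Hochberg over all of these genes, with a threshold of 0.05. The script was tested on simulated data that, unlike these libraries, held no difference between the experiments. Since the deposited unit is log2, no count model was used. In the labels the replicates carry the number of their experiment, which pairs the libraries: deviations of same-numbered libraries from their genotype mean correlated at 0.719 across genes, and the first principal component (76.7%) separated the experiments.

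Types and positions came from GENCODE M21, then RefSeq, both GRCm38. Copies were searched with dc-megablast of BLAST+ 2.17.0, at 95% identity over 100 bases for coverage and 75% for a parent. Other steps ran in Python 3.11.15 (pandas 2.3.3, scipy 1.17.1, numpy 2.4.6), and plots were drawn with matplotlib 3.10.9.

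Genes were named by rule: the 10 highest in mean CPM, 5 each way by genotype and by experiment, the top 3 per type, those at 0 reads in a library, and Gm13016. By genotype, where none passed, the smallest unadjusted p in the blocked fit decided among members whose genotypes do not overlap. Gm19719, Gm33651 and other members named outside it were picked with their values in view. The members, lists and rules were chosen with earlier results of these data known. Alternatives changed the block, pseudocount, filter, scaling, trend, weights and the libraries kept.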

Additional observations from a re-analysis of the deposited data

Results flagged for a closer look

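In 3 of the 25 members examined, named for level, genotype or zeros or picked with values in view, the TCRb-/- minus WT difference had opposite signs in the 2 experiments. Those picked for genotypes that do not overlap have the same sign by that choice. Of all 486 members tested, 243 had the same sign in both experiments, so opposite signs were common. The difference between experiments was not tested, with 1 library per genotype in each. For Gm13889 it was 0.075 in experiment 1 and -0.067 in experiment 2 on the log2(CPM + 1) scale, a change of -0.14. For the antisense RNA Gm12454 it was 0.071 and -0.39, a change of -0.46, and for the TEC entry Gm37176 it was 0.030 and -0.44, a change of -0.47. Gm12454 and Gm37176 each had 0 reads in TCRb-/- replicate 2 and at most 18 reads in any library.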

How the results depend on the processing

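No member was called by genotype under any alternative that kept the 4 libraries, the replicate block included, and leaving out 1 library gave between 0 and 1. Over all genes, the genotype count of 0 became 2 with the replicate block, 2 with voom weights and the replicate block, 1 with the replicate block and no filter (an alternative chosen after seeing the data), and between 0 and 38 without 1 library. By experiment, the count of 34 members became 11 with a filter at 10 CPM, which leaves 35 members to test, 14 without a trend, 53 with the replicate block and no filter, and between 6 and 62 without 1 library; the count of 3292 genes became 630 without a trend and between 1381 and 3408 without 1 library. The cause of the shifts without a trend and between left-out libraries was not tested. Of the genotype differences of named members, 1 of 217 values with all libraries changed sign, Gm13889 at -0.00069 with median-of-ratios scaling. Without 1 library, 10 of 80 did: the ranges were -0.12 to 0.15 for Gm16286, -0.073 to 0.082 for Gm13889, -0.25 to 0.015 for Gm23935, -0.19 to 0.0064 for Gm15800, -0.26 to 0.41 for Gm1673 and -0.089 to 0.27 for Gm14597. By experiment, 11 of 210 values lost the call and 1 of 78 without a library changed sign, Gm15564 with a range of -0.047 to 0.19, while 16 lost the call. The 478 members under 1 CPM have no value with that filter, and at such levels 1 read is worth between 0.0382 and 0.050 CPM.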

Other observations

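Of the members with a position, 14 lie within 20 Mb of Trbc2 on chromosome 6, and 6 of them reached 1 CPM. None of the 6 had both TCRb-/- libraries above both WT libraries, against 9.77% of all genes tested, and 1 had both below, against 8.04%. With 6 members these counts cannot be told from those shares. Their median genotype difference was 0.057 on the log2(CPM + 1) scale. Members under 1 CPM, Gm10244 at Mkrn1 among them, were not counted for overlap here. Across members and their partner genes, the experiment differences correlated at a Pearson's r of 0.69 over 13 same-strand exon overlaps, 0.26 over 38 members within an intron, 0.14 over 109 opposite-strand overlaps and 0.13 over 65 neighbours within 1 kb, as a description only, since all points share the same 4 libraries.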
